A study of Homo sapiens with 4 samples.

Results

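The genes described here encode integrins, laminins and collagens, the receptors and fibres by which cells hold to the matrix around them. They follow a naming rule: a gene was a member if it had a protein-coding transcript listed and its symbol followed the naming of integrin alpha or beta subunits, laminin chains or collagen chains. Of the 13036 genes listed, 41 were members, 13 integrins, 9 laminins and 19 collagens, and 11665 genes in all had a protein-coding transcript. ITGAE was listed only with noncoding transcripts and was not a member. ITGA7, which encodes a further laminin-binding subunit, and the laminin chain genes LAMA2 and LAMA4 were not analysed here.

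Integrins are receptors of one alpha and one beta subunit that span the cell membrane, bind matrix outside the cell and connect to actin or keratin filaments inside it. The alpha subunit largely sets the ligand: ITGA3 and ITGA6 products bind laminin, those of ITGA1 and ITGA2 bind collagen, and those of ITGA5 and ITGAV bind fibronectin or vitronectin. Laminins are cross-shaped trimers of an alpha, a beta and a gamma chain, and with collagen IV they form the basement membrane. Collagens are trimers too, and the fibrillar types I, III and V make up the stroma, where types VI and XII bind to the fibres. In the normal liver most such matrix is laid down by stellate cells, and epithelial tumour cells meet it as they invade.

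HCCLM3, a human hepatoma cell line, carried one of 2 short hairpin RNAs delivered by lentivirus. The shCtrl group (2 samples) had a control hairpin, and the shKIAA1429 group (2 samples) had a hairpin against KIAA1429, now named VIRMA, a scaffold of the enzyme complex that methylates adenosines of RNA at N6 (m6A). All 4 samples were stably infected cells of this line, a single hairpin stood for the knockdown, and the purpose was to find genes downstream of KIAA1429. The labels number the replicates and do not say whether they came from separate cultures, so p-values measure the spread between these samples, which may be technical.

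Each library gave FPKM, fragments scaled to the length of the transcript and to the total mapped, which allows levels of different genes to be set side by side. FPKM summed over all transcripts was 370253.5 and 374278.4 in shCtrl and 390224.4 and 382016.4 in shKIAA1429, so the totals were higher in both shKIAA1429 samples. Depth is unknown because the values carry no counts. VIRMA itself measured 9.02 and 14.1 FPKM in shCtrl and 5.81 and 8.52 FPKM in shKIAA1429, the shKIAA1429 pair being the lower (log2 fold change -0.61, SE 0.28, limma adjusted p = 0.924). Of 11 hepatocyte markers 3 were read here, KRT8, KRT18 and SERPINA1. The keratins KRT8 and KRT18 lay between 971 and 1169.9 FPKM and SERPINA1 was at 4.42, 3.34, 5.63 and 4.70 FPKM. The other 8 markers, ALB, AFP and HNF4A among them, had no row here and were not analysed here, so the liver origin of the cells was not shown by these defining genes. In bulk RNA, fewer cells of a type and less RNA per cell cannot be told apart.

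Sequences of the exons that tell the receptor transcripts apart are given first, since the values further on turn on them. The laminin-binding alpha subunits ITGA3 and ITGA6 each exist in forms A and B, which differ in the tail inside the cell according to whether a cassette exon near the 3′ end is included (form A) or skipped (form B). Sequences are on the plus strand of GRCh37, read from GENCODE 44 transcripts lifted to that build. Lower case marks the bases of the exon before and, for ITGB4, also after. The stretch of ITGB4-212 differs, since the lower-case bases before its capitals lie in the same exon. Capitals mark the coding bases of the exon up to its stop codon, where it holds one. The ITGA3-202 cassette is exon 25 of 26 (chr17:48165589-48165730, 142 bases, of which 111 are coding), and ITGA3-201 reads the last exon in its place (coding part chr17:48166474-48166629). The ITGA6-201 cassette is exon 25 of 26 (chr2:173366500-173366629, 130 bases, of which 108 are coding), and ITGA6-206 reads its last exon (coding part chr2:173368819-173368980).
ITGA3-202 cassette: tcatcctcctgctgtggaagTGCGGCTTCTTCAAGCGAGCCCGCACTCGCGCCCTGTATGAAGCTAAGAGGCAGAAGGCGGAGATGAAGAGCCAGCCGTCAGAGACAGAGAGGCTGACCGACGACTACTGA
ITGA3-201 last exon: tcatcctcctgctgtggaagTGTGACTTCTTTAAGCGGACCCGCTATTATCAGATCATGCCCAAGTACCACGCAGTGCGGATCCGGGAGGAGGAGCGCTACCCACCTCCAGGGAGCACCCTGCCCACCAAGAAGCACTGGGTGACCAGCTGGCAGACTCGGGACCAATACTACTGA
ITGA6-201 cassette: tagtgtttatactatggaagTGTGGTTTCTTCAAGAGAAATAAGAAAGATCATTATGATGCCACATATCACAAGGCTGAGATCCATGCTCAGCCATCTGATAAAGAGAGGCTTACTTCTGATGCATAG
ITGA6-206 last exon: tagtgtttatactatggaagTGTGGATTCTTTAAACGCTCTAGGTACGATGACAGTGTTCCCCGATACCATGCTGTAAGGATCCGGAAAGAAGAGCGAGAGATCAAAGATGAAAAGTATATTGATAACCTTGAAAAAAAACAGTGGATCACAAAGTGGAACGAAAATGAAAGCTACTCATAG

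ITGB4 encodes the beta 4 subunit, whose long inner tail connects to keratin through hemidesmosomes. Its coding transcripts differ by cassettes in that tail, and 1 noncoding transcript carries bases of its own. The cassette of ITGB4-202 is exon 34 of 40 (chr17:73751136-73751294, 159 bases, all coding). ITGB4-212, a processed transcript with no coding frame in the annotation, has 37 bases found in no other listed ITGB4 transcript (chr17:73736543-73736579), at the 3′ end of its 141-base exon 20 of 24. Those 37 bases are intronic for the other listed transcripts and are in capitals.
ITGB4-202 cassette: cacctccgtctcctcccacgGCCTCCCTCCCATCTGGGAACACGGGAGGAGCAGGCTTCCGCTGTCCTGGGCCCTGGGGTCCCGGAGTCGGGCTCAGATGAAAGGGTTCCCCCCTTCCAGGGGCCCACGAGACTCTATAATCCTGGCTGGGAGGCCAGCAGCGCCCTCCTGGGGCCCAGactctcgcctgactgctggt
ITGB4-212 own bases: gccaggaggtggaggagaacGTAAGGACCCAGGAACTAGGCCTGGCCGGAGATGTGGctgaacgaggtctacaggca

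The first question was whether matrix and receptor genes as a whole differed between shKIAA1429 and shCtrl cells. No member passed both thresholds (limma adjusted p under 0.05 and absolute log2 fold change over 1), and neither did any of the 11590 genes tested (0.00%). Of the 41 members 40 were tested; COL11A2, at 0.556 to 0.634 FPKM, lay under the minimum. A positive fold change means a higher level in shKIAA1429. It is a difference of log2(FPKM + 1), a scale on which low genes change less than they do in FPKM. At an unadjusted p under 0.05, 4 members were higher and 2 were lower, all of them collagens, where 3.04% of all genes tested were higher and 2.69% lower. In 11 members both shKIAA1429 values lay above both shCtrl values, and in 4 they lay below, against 16.7% and 16.7% of all genes tested. Median log2 fold changes were -0.071 over the 13 integrins, 0.016 over the 9 laminins and 0.13 over the 18 collagens tested, beside -0.0093 over all genes tested. The lowest adjusted p of a member was 0.411, for COL12A1, and the lowest of any gene was 0.240. For a single gene, an exact permutation test of 2 samples against 2 cannot give a two-sided p below 0.333.

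**Figure D1:**
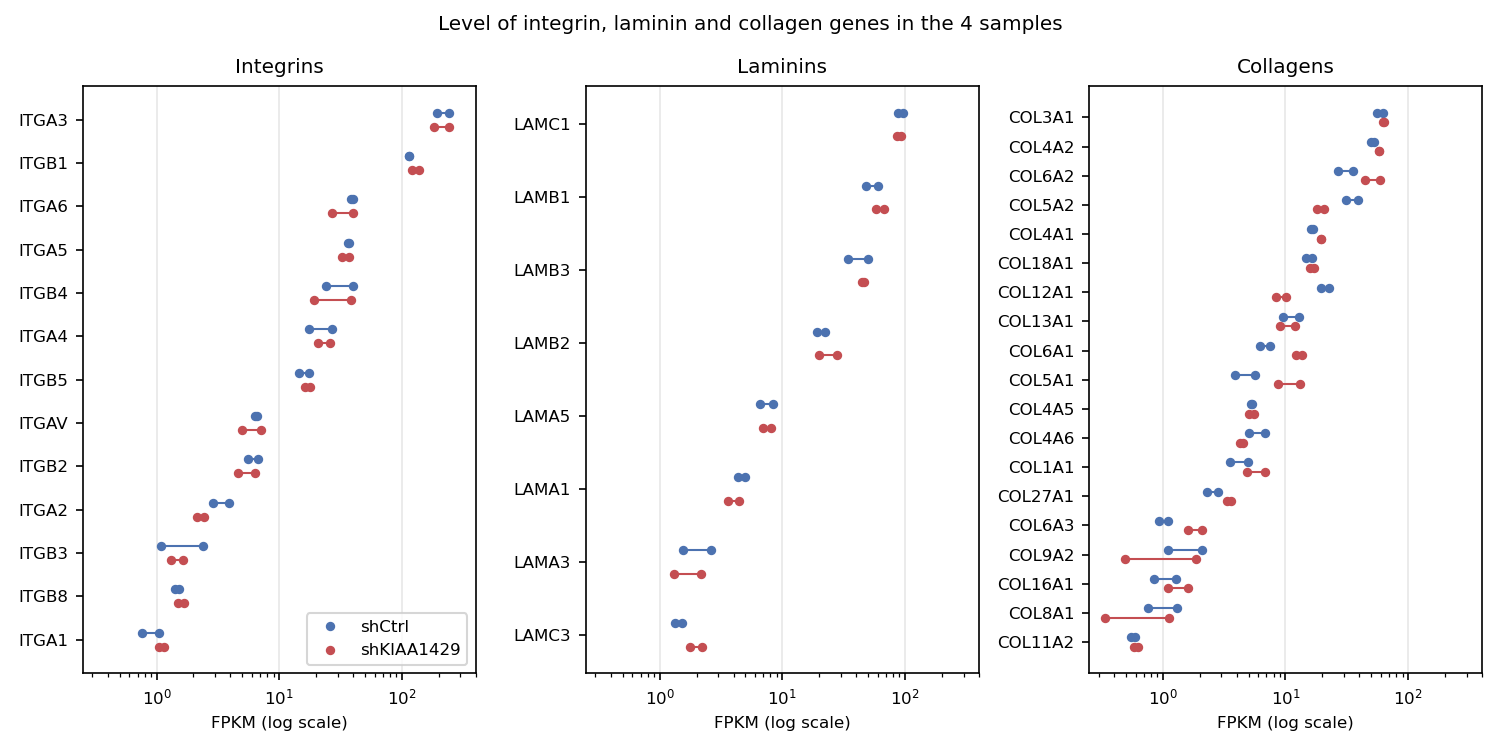
Level of the member genes other than 1 laminin in FPKM on a log axis, one row per gene ordered by mean level in each family. Points are single samples (blue shCtrl, red shKIAA1429) and a line joins the 2 samples of a group. ITGA3 and ITGB1 stand highest among integrins and LAMC1 among laminins. The red and blue points do not overlap for 15 genes, among them COL12A1, COL5A1, COL5A2 and the 3 COL6A genes.

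ITGA3, ITGB1 and ITGA6, which encode subunits of the laminin receptors, had the highest mean levels among the integrin genes. Values of the 4 samples are given from here in the order shCtrl replicates 1 and 2, then shKIAA1429 replicates 1 and 2. ITGA3 (ENSG00000005884.17_2, chr17:48133474-48167845), the alpha 3 subunit, was the highest at 241, 192, 240.0 and 182 FPKM. Its partner ITGB1 (ENSG00000150093.18_3, chr10:33189247-33247160), the beta 1 subunit that pairs with most alpha subunits, measured 114, 115, 137 and 121 FPKM. ITGA6 (ENSG00000091409.14_3, chr2:173292283-173371010), the alpha 6 subunit, pairs with either beta 1 or beta 4 and measured 38.3, 39.8, 27.2 and 39.6 FPKM. ITGB4 (ENSG00000132470.13_2, chr17:73717408-73753899), which pairs with alpha 6 alone, measured 40.1, 23.9, 38.7 and 19.2 FPKM over its coding transcripts, with a mean below that of ITGA5.

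None of these 4 genes passed the threshold. The ITGA3 groups overlapped, at 216 ± 34.3 FPKM (SD, n = 2) in the control and 211 ± 41.2 FPKM (SD, n = 2) in the knockdown group (log2 fold change -0.043, SE 0.19, limma adjusted p = 0.999, 95% interval -0.55 to 0.47). Both ITGB1 values in shKIAA1429 lay above both in shCtrl, at 115 ± 0.691 FPKM (SD, n = 2) in the control and 129 ± 11.7 FPKM (SD, n = 2) in the knockdown group (log2 fold change 0.16, SE 0.12, limma adjusted p = 0.974, 95% interval -0.15 to 0.48). For ITGA6, shKIAA1429 replicate 1 alone was low, and the fold change (log2 fold change -0.24, SE 0.21, limma adjusted p = 0.978) turned to 0.020 without that sample. ITGB4 was higher in replicate 1 than in replicate 2 of both groups, the groups overlapped (log2 fold change -0.18, SE 0.41, limma adjusted p = 0.996), and the interval of the difference was wide, -1.26 to 0.90. The ratio of ITGA3 to ITGA6 was 6.28, 4.83, 8.84 and 4.59 in the 4 samples, and that of ITGB1 to ITGB4 was 2.85, 4.82, 3.55 and 6.28, with overlap of the groups in both.

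Next, the 23 listed transcripts of these 4 genes were compared one by one. All 23 were tested in a fit over 24996 transcripts, in which none passed both thresholds (0.00%). At an unadjusted p under 0.05, 1 of the 23 was higher and 2 were lower, beside 3.10% and 3.18% of all transcripts tested. Values per transcript rest on how the fragments of shared exons were divided, since 8 of the 23 had no exonic base of their own, and the structures are those of the later annotation, in which 22 of the 23 were found and 12 had the same ends.

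ITGA3 was almost wholly form A. ITGA3-202, with the cassette, measured 229, 185, 229 and 172 FPKM, while ITGA3-201, which skips it, measured 3.001, 0.532, 2.43 and 4.40 FPKM. The form with the cassette took 96.5%, 97.5%, 96.1% and 95.5% of the FPKM of the 3 coding transcripts that span it. Short coding transcripts added little: ITGA3-209 measured 5.38, 4.16, 6.88 and 3.66 FPKM and ITGA3-213 measured 3.09, 2.49, 2.20 and 1.37 FPKM. Of the 4, only ITGA3-213 had groups that did not overlap, and its adjusted p was 0.973 by limma.

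ITGA6, unlike ITGA3, was a mixture of both forms. ITGA6-201, with the cassette, measured 17.5, 13.997, 16.8 and 15.7 FPKM, so that its level hardly varied. ITGA6-206, which skips it, measured 16.7, 17.5, 5.73 and 20.4 FPKM, and the low value in shKIAA1429 replicate 1 was the one that lowered the gene's sum. The other transcripts without the cassette, ITGA6-202 and ITGA6-207, measured 2.03, 5.79, 2.65 and 3.49 FPKM and 2.08, 2.43, 1.9997 and 0 FPKM. ITGA6-207 was listed at 0 in shKIAA1429 replicate 2, which can be a failed estimate. The share with the cassette was 45.7%, 35.2%, 61.8% and 39.7%, and the groups overlapped. For ITGA6-206 the log2 fold change was -0.59 with a limma adjusted p of 0.985, and it ran from -1.43 to 0.24 as single replicates were left out.

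ITGB1 was carried by 1 main transcript, ITGB1-201, at 87.4, 97.7, 121 and 90.0 FPKM. Next came ITGB1-204 at 5.93, 6.27, 5.82 and 9.45 FPKM and ITGB1-202 at 10.05, 1.62, 2.41 and 9.56 FPKM. The latter varied widely within both groups, with replicate 1 the higher in shCtrl and replicate 2 the higher in shKIAA1429. The noncoding ITGB1-213 measured 3.06, 1.81, 3.23 and 1.43 FPKM. ITGB1-209 measured 1.56, 2.22, 2.18 and 2.72 FPKM and ITGB1-215 measured 2.14, 1.58, 2.34 and 2.75 FPKM, the latter with both shKIAA1429 values above both shCtrl values. ITGB1-210 measured 2.70, 1.47, 1.48 and 1.98 FPKM, with no order between the groups. ITGB1-203 and ITGB1-212 measured 1.68, 2.097, 0.828 and 2.60 FPKM and 1.42, 1.32, 1.24 and 1.39 FPKM, and both overlapped. ITGB1-216, a short coding transcript near 1 FPKM, measured 1.502, 1.11, 0.478 and 0.290 FPKM, lower in shKIAA1429 at an unadjusted p of 0.0278 (log2 fold change -0.74, SE 0.21, limma adjusted p = 0.654), which did not pass the threshold. It was not found in the annotation used for structures.

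Of these 4 genes, ITGB4 had the 2 transcripts with the largest absolute differences on log2(FPKM + 1). The noncoding ITGB4-212 was nearly undetected in shCtrl, at 0.0738 FPKM in replicate 1 and listed at 0 in replicate 2, and measured 21.8 and 16.1 FPKM in shKIAA1429. The fitted difference of log2(FPKM + 1) was 4.25 (SE 0.23, limma adjusted p = 0.111), short of the threshold, and it was 7.16 with a pseudocount of 0.1, so no fold is given. That adjusted p was the lowest in the table, shared by 20 of the 24996 transcripts tested. Among all 128 member transcripts it was the 1 that was under 0.1 FPKM in the control samples and reached 5 FPKM or more in each knockdown sample, like 14 of all 38510 transcripts (0.0364%). No member transcript went the opposite way, and 24 of all transcripts did. The threshold of this count was set with the values known.

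The coding ITGB4-202, whose exon 34 is printed above, was the lower one in shKIAA1429. It measured 8.57 and 8.90 FPKM in shCtrl and 1.93 and 0.903 FPKM in shKIAA1429, so both shKIAA1429 values lay under both shCtrl values (log2 fold change -2.04, SE 0.29, limma adjusted p = 0.257). ITGB4-206, the main coding transcript, measured 23.7, 9.88, 28.5 and 12.2 FPKM. ITGB4-201, which has a further cassette at exon 33, measured 5.89, 3.04, 6.34 and 4.28 FPKM, and the short ITGB4-213 measured 1.94, 2.13, 1.85 and 1.85 FPKM. Transcripts with the cassette of ITGB4-202 took 21.3%, 37.2%, 4.99% and 4.70% of the coding FPKM that spans it, and those with the cassette of ITGB4-201 took 15.4%, 13.9%, 17.2% and 24.7%. The sum over all 5 listed transcripts was 40.2, 23.9, 60.4 and 35.4 FPKM, and with ITGB4-212 included the log2 fold change of the gene turned from -0.18 to 0.56, in both cases without passing the threshold.

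**Figure D2:**
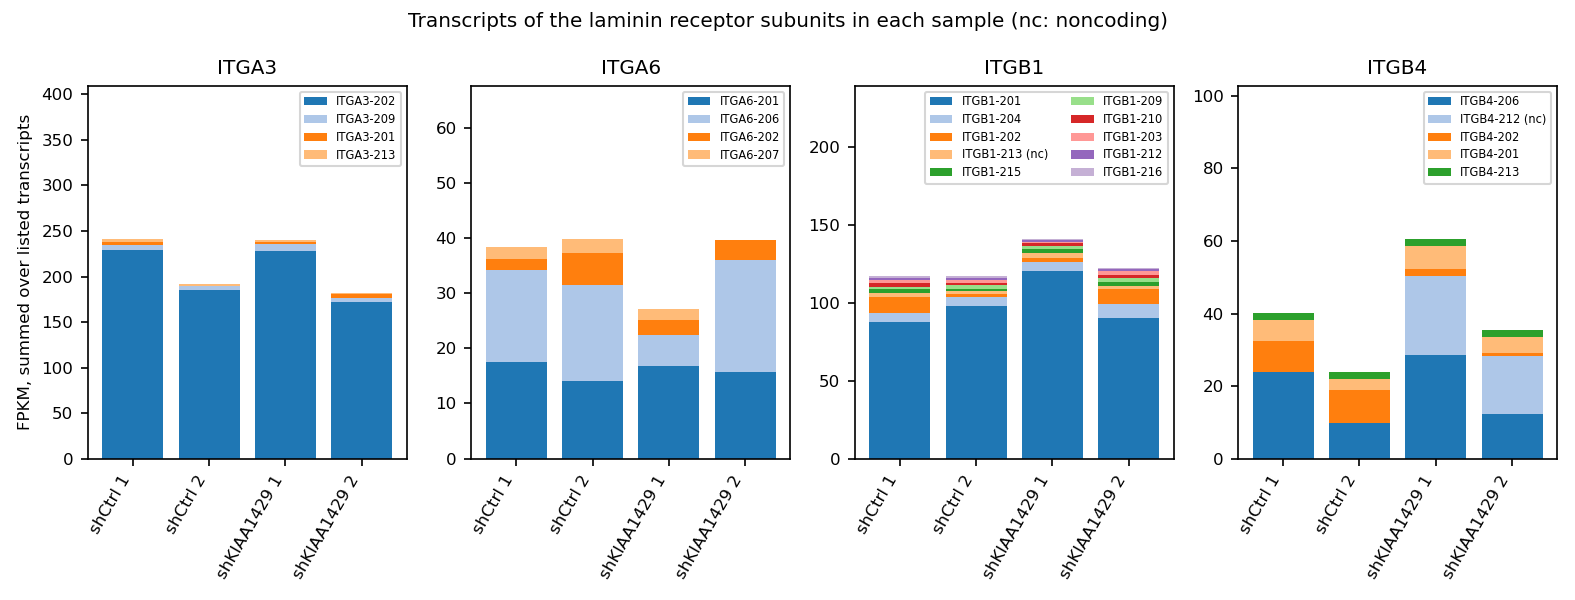
FPKM of every listed transcript of ITGA3, ITGA6, ITGB1 and ITGB4, stacked per sample, with axes from 0 and one colour per transcript in each panel. In ITGB4 the pale segment of ITGB4-212 appears in both shKIAA1429 bars at 21.8 and 16.1 FPKM, while the orange segment of ITGB4-202 is thinner there than in shCtrl.

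ITGB4-212 has 24 exons and 2895 exonic bases, and it runs from the second exon of the coding transcripts into the middle of the gene. Of those bases 2858, or 98.7%, are shared with each of ITGB4-201, ITGB4-202 and ITGB4-206. Its level therefore rests on the 37 bases printed above, on the reads that join its exons, and on how fragments were divided between transcripts by a tool that is not stated. As listed, ITGB4-202 starts at chr17:73720776, close to the ITGB4-212 start at chr17:73720784. The later annotation places the first exon of ITGB4-202 further upstream. Whether the division of fragments had a part in the opposite differences of ITGB4-212 and ITGB4-202 was not tested.

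**Figure D3:**
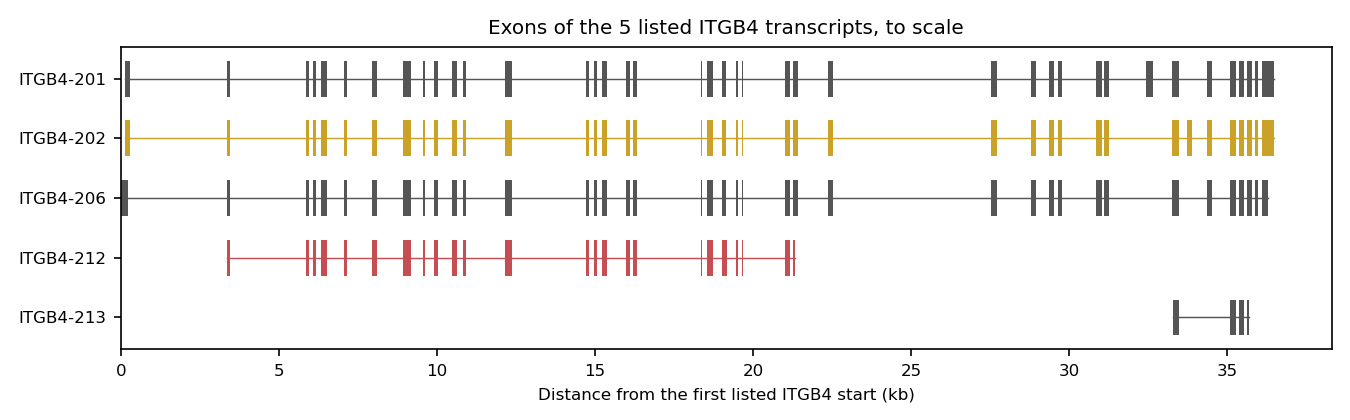
Exons (boxes) of the 5 listed ITGB4 transcripts to scale, by distance in kb from the first listed start. ITGB4-212 (red) ends near the middle of the gene, and ITGB4-202 (gold) has an exon downstream of that end which ITGB4-201 and ITGB4-206 lack.

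The remaining integrins covered receptors for fibronectin, vitronectin and collagen. ITGA5, the main fibronectin receptor subunit, measured 36.2, 37.1, 37.1 and 32.7 FPKM, with overlap of the groups (log2 fold change -0.071, SE 0.13, limma adjusted p = 0.996). ITGA4, which binds fibronectin and VCAM1, measured 26.8, 17.5, 26.2 and 20.7 FPKM. ITGAV, the alpha subunit of the vitronectin receptors, measured 6.36, 6.58, 4.98 and 7.09 FPKM. In all 3 genes the groups overlapped. The collagen-binding ITGA1 and ITGA2 were low: ITGA1 measured 1.04, 0.756, 1.14 and 1.05 FPKM and ITGA2 measured 3.93, 2.90, 2.43 and 2.14 FPKM. ITGA2 had the lowest adjusted p of the integrins, 0.916 by limma, at a log2 fold change of -0.42, and its shKIAA1429 values were the lower pair. ITGB5, a vitronectin receptor subunit, measured 14.6, 17.6, 16.2 and 17.9 FPKM. ITGB2, the subunit known from leukocytes, measured 6.72, 5.55, 6.31 and 4.64 FPKM. ITGB3 measured 2.39, 1.08, 1.64 and 1.31 FPKM, and ITGB8, which takes part in releasing active TGF-beta, measured 1.41, 1.53, 1.497 and 1.69 FPKM. The 4 beta subunits ITGB2, ITGB3, ITGB5 and ITGB8 overlapped between the groups, and their log2 fold changes ran from -0.15 to 0.082.

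Laminin chains were unequal in level, with the beta chains and LAMC1 well above the alpha chains. Summed per chain class, the 3 alpha genes gave 15.9, 12.5, 14.7 and 11.8 FPKM and the 3 beta genes 132, 102, 141 and 123 FPKM. LAMC1 (ENSG00000135862.5_2, chr1:182992595-183114727), the gamma 1 chain of most laminins, was the highest at 97.1, 87.6, 92.4 and 86.3 FPKM. LAMB1, the beta 1 chain, measured 59.8, 48.1, 67.2 and 58.3 FPKM. LAMB3, the beta 3 chain known from laminin-332, measured 49.7, 34.6, 46.6 and 44.3 FPKM, and LAMB2, the beta 2 chain, measured 22.4, 19.0, 27.7 and 19.9 FPKM. In all 4 of these genes the groups overlapped, and the log2 fold changes were -0.046, 0.22, 0.13 and 0.18 in that order.

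Among the alpha chains LAMA5 was the highest at 8.34, 6.59, 8.11 and 6.96 FPKM (log2 fold change 0.016, SE 0.18, limma adjusted p = 0.999). LAMA1 measured 4.97, 4.37, 4.43 and 3.58 FPKM. LAMA3, which encodes the alpha chain of laminin-332, measured 2.60, 1.54, 2.18 and 1.30 FPKM. Its value rests on the only LAMA3 transcript listed, LAMA3-202 (chr18:21269407-21535030), and does not cover other LAMA3 transcripts. LAMB3 was at a higher level than this LAMA3 transcript, and the ratio of LAMB3 to LAMA3 was 19.1, 22.5, 21.4 and 34.1. LAMC3 measured 1.51, 1.35, 2.22 and 1.753 FPKM and was the only laminin gene whose groups did not overlap (log2 fold change 0.29, SE 0.17, limma adjusted p = 0.948). No laminin gene had an unadjusted p under 0.05.

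Collagens held the 6 members with an unadjusted p under 0.05. COL6A1, COL6A2 and COL6A3 encode the 3 chains that join into collagen VI, which forms beaded filaments around cells. COL6A1 (ENSG00000142156.14_2, chr21:47401651-47424964) measured 7.52 and 6.25 FPKM in shCtrl and 13.6 and 12.2 FPKM in shKIAA1429, with means of 6.89 ± 0.900 FPKM (SD, n = 2) in the control and 12.9 ± 0.932 FPKM (SD, n = 2) in the knockdown group (log2 fold change 0.82, SE 0.16, limma adjusted p = 0.523). COL6A2 (ENSG00000142173.14_2, chr21:47518011-47552763) measured 35.8 and 26.9 FPKM in shCtrl and 58.7 and 44.2 FPKM in shKIAA1429 (log2 fold change 0.70, SE 0.22, limma adjusted p = 0.809). COL6A3 (ENSG00000163359.15_3, chr2:238233417-238305460) was much lower at 0.926 and 1.10 FPKM in shCtrl and 1.602 and 2.08 FPKM in shKIAA1429 (log2 fold change 0.49, SE 0.18, limma adjusted p = 0.863). In all 3 genes both shKIAA1429 values lay above both shCtrl values, and in none did the adjusted p pass the threshold. Of the coding transcripts of COL6A1, COL6A1-207 was apart in this direction, at 4.72, 4.20, 8.49 and 9.47 FPKM. COL6A1-201 measured 2.81, 2.05, 5.06 and 2.77 FPKM and overlapped. The ratio of COL6A2 to COL6A1 was 4.76, 4.297, 4.33 and 3.61 and that of COL6A1 to COL6A3 was 8.12, 5.66, 8.46 and 5.89, with overlap of the groups in both.

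COL6A1 and COL6A2 are neighbours on chromosome 21, and 4 members lie on that chromosome. The other two there, COL18A1 and ITGB2, overlapped between the groups. COL18A1, a basement membrane collagen and source of endostatin, measured 16.4, 14.7, 17.1 and 15.8 FPKM (log2 fold change 0.076).

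Collagen V, which is known to govern how thick collagen fibrils become, had its 2 listed chains apart between the groups in opposite directions. COL5A1 (ENSG00000130635.15_3, chr9:137533620-137736689), the alpha 1 chain, measured 3.84 and 5.64 FPKM in shCtrl and 8.77 and 13.0 FPKM in shKIAA1429 (log2 fold change 1.05, SE 0.26, limma adjusted p = 0.681). COL5A2 (ENSG00000204262.11_2, chr2:189896622-190044605), the alpha 2 chain, measured 39.3 and 31.4 FPKM in shCtrl and 20.7 and 18.2 FPKM in shKIAA1429 (log2 fold change -0.82, SE 0.17, limma adjusted p = 0.551). The groups were apart in both genes, higher in COL5A1 and lower in COL5A2, and neither passed the adjusted threshold. The ratio of COL5A2 to COL5A1 was 10.2, 5.57, 2.36 and 1.40 in the 4 samples, which puts both shKIAA1429 samples below both shCtrl samples. This ratio was chosen after the values were seen and was not tested.

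COL12A1 (ENSG00000111799.20_2, chr6:75794042-75915767), a collagen that binds along the surface of fibrils, had the largest absolute difference of any member on log2(FPKM + 1), though with a pseudocount of 0.1 COL5A1 was ahead (1.18 against -1.17). It measured 22.7 and 19.3 FPKM in shCtrl and 10.2 and 8.35 FPKM in shKIAA1429, averaging 20.99 ± 2.36 FPKM (SD, n = 2) in the control and 9.27 ± 1.30 FPKM (SD, n = 2) in the knockdown group (log2 fold change -1.10, SE 0.17, limma adjusted p = 0.411). Both shKIAA1429 values were below both shCtrl values. Without shKIAA1429 replicate 2 the log2 fold change was -0.97, and without shKIAA1429 replicate 1 it was -1.23. With an adjusted p of 0.342 to 0.455 over the other limma settings that keep all samples, the difference did not pass the threshold.

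**Figure D4:**
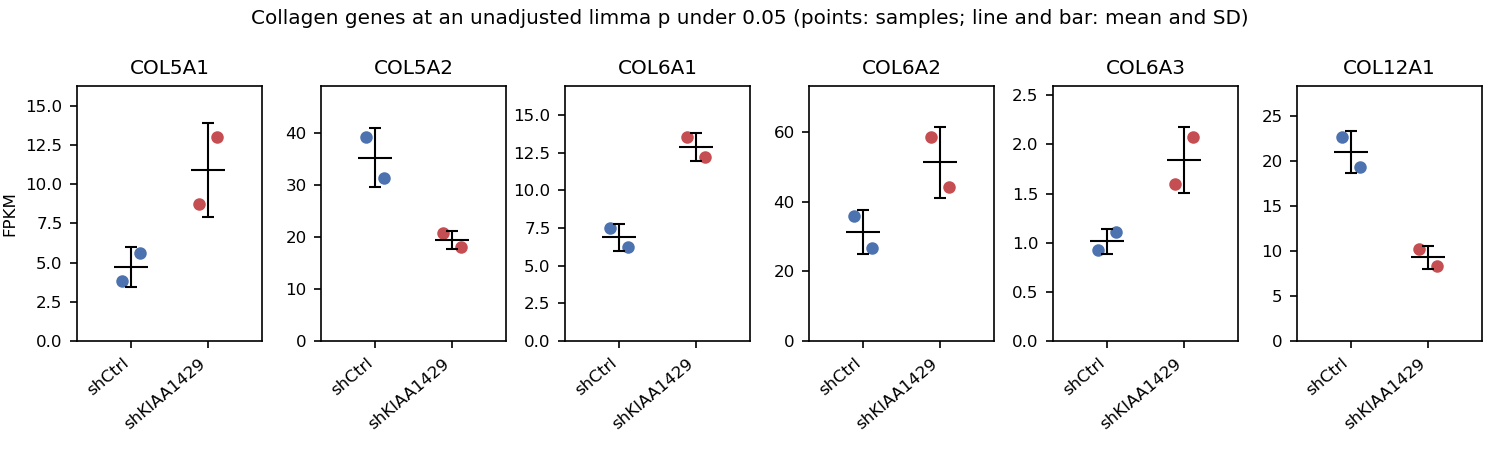
FPKM of the 6 collagen genes with an unadjusted limma p under 0.05, one panel per gene with its axis from 0. Points are samples, the line is the group mean and the bar the SD of 2 samples. COL5A2 and COL12A1 are lower and COL5A1, COL6A1, COL6A2 and COL6A3 are higher in shKIAA1429, with no overlap of points.

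The remaining fibrillar collagens were COL3A1, COL1A1, COL27A1 and the untested COL11A2. COL3A1, the chain of collagen III, was the highest collagen at 61.9, 55.8, 63.6 and 62.2 FPKM (log2 fold change 0.097, SE 0.12, limma adjusted p = 0.991). COL1A1, the major chain of collagen I in connective tissue, was far lower at 3.54, 4.95, 4.90 and 6.76 FPKM, with a ratio of COL3A1 to COL1A1 of 17.5, 11.3, 13.0 and 9.20. COL1A2, the second chain of collagen I, was not analysed here. COL27A1 measured 2.82, 2.31, 3.604 and 3.36 FPKM, with the shKIAA1429 values above the shCtrl values (log2 fold change 0.33, SE 0.16, limma adjusted p = 0.935).

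Collagen IV forms the network of the basement membrane, and its main chains are encoded by COL4A1 and COL4A2. COL4A1 (ENSG00000187498.14_3, chr13:110801310-110959496) measured 16.2, 16.9, 19.4 and 19.6 FPKM and COL4A2 (ENSG00000134871.17_3, chr13:110959614-111165374) measured 49.6, 52.6, 57.7 and 57.5 FPKM. Both were slightly higher in each shKIAA1429 sample, with log2 fold changes of 0.23 (limma adjusted p = 0.948) and 0.17 (limma adjusted p = 0.970). The ratio of COL4A2 to COL4A1 varied little, at 3.06, 3.12, 2.97 and 2.93, with both shKIAA1429 values slightly below both shCtrl values. This ratio was not tested. The genes lie head to head, and the sequence between their starts is shown because both are read away from it. It spans 126 bases of chr13:110307158-110307283 on the plus strand of GRCh38.p14, between the start positions in the RefSeq promoter table, and motifs found are in capitals.
COL4A1 to COL4A2: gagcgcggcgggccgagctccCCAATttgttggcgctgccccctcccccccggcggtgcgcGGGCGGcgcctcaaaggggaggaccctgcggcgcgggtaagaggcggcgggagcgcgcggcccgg

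On both strands of these 126 bases, CCAAT occurred 1 time and GGGCGG occurred 1 time, with no overlap between them, and TATAAA was not found. Of 35116 promoter windows of the same length, 21.1% held CCAAT, 34.6% held GGGCGG and 5.87% held TATAAA. These are matches of letters and not shown to be sites.

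COL4A5 and COL4A6, a further head-to-head pair on the X chromosome, measured 5.30, 5.22, 5.57 and 5.09 FPKM and 6.78, 5.08, 4.51 and 4.29 FPKM. COL4A6 was lower in both shKIAA1429 samples (log2 fold change -0.35, SE 0.18, limma adjusted p = 0.943), and COL4A5 overlapped. Of the other collagens, COL13A1, a transmembrane collagen, measured 12.8, 9.60, 12.01 and 9.02 FPKM, and COL16A1 measured 1.28, 0.852, 1.61 and 1.11 FPKM. COL8A1 and COL9A2 were near 1 FPKM, at 0.757, 1.31, 0.335 and 1.12 FPKM and 2.11, 1.10, 1.85 and 0.490 FPKM. In these 4 genes the groups overlapped, with log2 fold changes from -0.31 to 0.19.

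**Figure D5:**
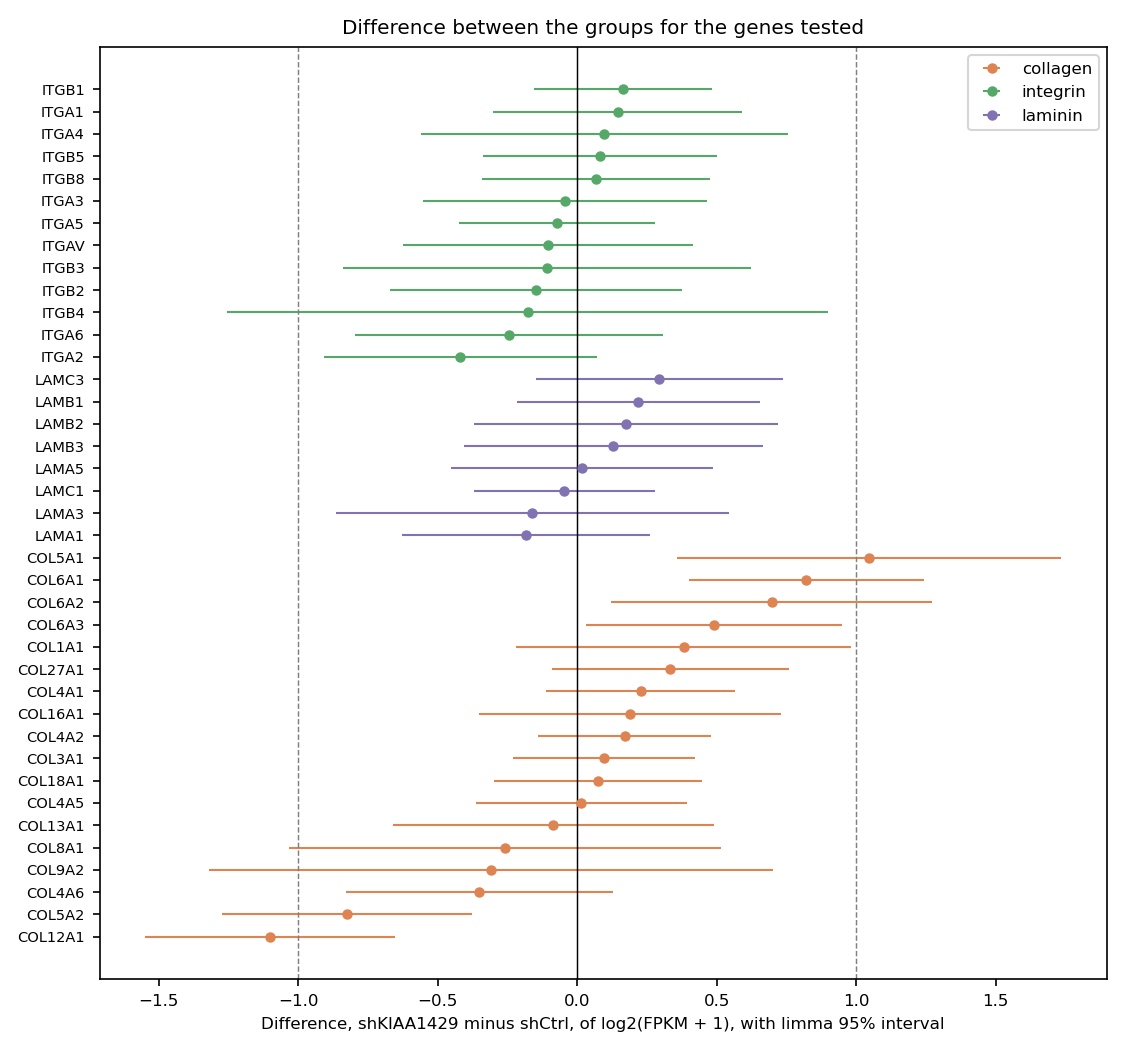
Difference between the groups for each gene tested other than 1 laminin, shKIAA1429 minus shCtrl on log2(FPKM + 1), ordered within family. Bars are limma 95% intervals without adjustment for multiple tests and dashed lines mark -1 and 1. The intervals of 6 collagens do not cross 0, and those of all 13 integrins and of the laminins shown do.

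Markers of matrix-producing cells were read beside the collagens. Of 8 fibroblast and stellate markers 7 were listed, and their summed level was 123, 143, 108 and 128 FPKM, with overlap of the groups. Among them LUM, a small proteoglycan of collagen fibrils, measured 7.92, 7.04, 2.73 and 2.88 FPKM (log2 fold change -1.16, SE 0.15, limma adjusted p = 0.354), and POSTN, a matrix protein, measured 0.914, 1.04, 2.08 and 2.91 FPKM (log2 fold change 0.81, SE 0.19, limma adjusted p = 0.624). Neither passed the adjusted threshold. The abundant markers were the contractile genes ACTA2, at 53.3, 50.3, 51.2 and 47.4 FPKM, and TAGLN, at 18.9, 40.2, 20.3 and 36.8 FPKM, both with overlap of the groups. THY1, a surface protein of fibroblasts, measured 35.5, 40.7, 26.7 and 33.5 FPKM, lower in each shKIAA1429 sample (log2 fold change -0.34, SE 0.17, limma adjusted p = 0.936). DCN, a defining fibroblast proteoglycan, was at 1.06, 0.120, 0.177 and 0.253 FPKM, PDGFRB was between 3.99 and 5.14 FPKM, and PDGFRA was not analysed here. None of 6 endothelial markers was listed, and of 6 leukocyte markers CD68 and CD14 were. Their part in the collagen differences was not tested.

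Genes of 3 lists that work with the members were read in the same fit, and none of them passed both thresholds. From each list the 3 genes with the lowest unadjusted limma p are named, a choice that favours genes with separated groups. Of 29 adaptors and kinases of adhesion sites 26 were tested and none had an unadjusted p under 0.05 (median log2 fold change 0.063). FLNA, which ties integrin tails to actin, measured 112, 105, 157 and 128 FPKM (log2 fold change 0.38, SE 0.15, limma adjusted p = 0.865). CD151, a membrane partner of the laminin-binding integrins, measured 41.4, 77.5, 95.3 and 84.6 FPKM (log2 fold change 0.65, SE 0.31, limma adjusted p = 0.931), and shCtrl replicate 1 alone was low. TLN1, the talin that activates integrins, measured 92.2, 82.3, 114 and 98.7 FPKM (log2 fold change 0.28, SE 0.14, limma adjusted p = 0.935). In all 3 both shKIAA1429 values lay above both shCtrl values. Of the 26 tested, 8 were apart in this direction and 3 in the opposite one, beside 16.7% and 16.7% of all genes tested.

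Of 15 other laminin receptors and basement membrane partners 13 were tested, and 2 had an unadjusted p under 0.05, both higher (median log2 fold change 0.095). FN1, which encodes fibronectin, measured 128 and 119 FPKM in shCtrl and 215 and 206 FPKM in shKIAA1429 (log2 fold change 0.76, SE 0.11, limma adjusted p = 0.361). TNC, the matrix protein tenascin, measured 0.478, 0.679, 1.42 and 1.66 FPKM (log2 fold change 0.69, SE 0.17, limma adjusted p = 0.669). Both were apart between the groups, whereas FBLN1, a basement membrane fibulin, measured 10.8, 8.02, 12.5 and 10.7 FPKM and overlapped (log2 fold change 0.29, SE 0.20, limma adjusted p = 0.966).

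Of 22 genes for collagen processing and crosslinking 19 were tested, and again 2 had an unadjusted p under 0.05, both higher (median log2 fold change 0.049). They were the lysyl oxidase family genes LOXL1, at 9.63, 9.26, 16.2 and 12.6 FPKM (log2 fold change 0.55, SE 0.17, limma adjusted p = 0.808), and LOXL4, at 2.44, 1.69, 5.11 and 3.23 FPKM (log2 fold change 0.74, SE 0.25, limma adjusted p = 0.856). BMP1, the protease that trims procollagen, measured 3.85, 5.88, 3.23 and 1.84 FPKM (log2 fold change -0.74, SE 0.29, limma adjusted p = 0.865), lower in each shKIAA1429 sample than in either shCtrl sample. These counts are beside 3.04% higher and 2.69% lower over all genes tested.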

How the data were processed

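RNA of 4 HCCLM3 samples was sequenced, 2 with shCtrl and 2 with shKIAA1429, and groups and replicate numbers were taken from the sample titles. According to the methods of the study, the authors mapped paired reads with TopHat on Bowtie indexes and compared read numbers per gene with DESeq. The submitters' processing notes name Bowtie2 2.1.0 and hg19. The sample labels name a single-read cluster kit, so whether the reads of these files were paired is not settled. The deposited files hold FPKM per transcript instead, produced by the authors with software not given in the sources used here, with GENCODE identifiers on GRCh37. Listed transcripts all reached 0.504 FPKM in at least 1 sample. The FPKM steps give no whole reads, so depth is unknown and no counting interval is given. Strand and multiple-mapping rules are not given, so overlapping genes, antisense genes and paralogs remain uncertain.

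FPKM of protein-coding transcripts were summed per gene (all transcripts where a gene had none). Genes, and separately transcripts, with at least 1 FPKM in at least 2 samples were compared on log2(FPKM + 1) with limma 3.58.1 in R 4.3.3 (trend, group only, two-sided), with Benjamini-Hochberg adjustment across all features tested. The test was checked on simulated data with planted differences larger than that of any member gene. That check therefore does not cover differences of the size seen in the member genes. One laminin gene counts in the totals and is not reported singly here. The members and lists were chosen with earlier results of these data known. Given in full were the laminin receptor subunits with their transcripts and the 5 highest members of each family. So were the 5 members with the lowest p and the 5 with the largest fold change. From each pathway list the 3 genes with the lowest unadjusted limma p were given. Exons come from GENCODE 44 lifted to GRCh37 and promoters from RefSeq (GRCh38.p14). Alternatives were upper quartile scaling, no filter, a filter in every sample, a pseudocount of 0.1, a replicate block, all listed rows per gene and each replicate left out. Figures were drawn with matplotlib 3.10.9.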

Additional observations from a re-analysis of the deposited data

How the results depend on the processing

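No member, pathway gene or receptor transcript passed both thresholds under any alternative, and over all genes the count stayed at 0 except for 1 gene without shCtrl replicate 1. The 6 members with an unadjusted p under 0.05 numbered 5 to 8 under the settings that keep all samples and 4 to 5 with a replicate left out. Summing all listed rows reversed ITGB4 (0.56), COL13A1 (0.0060) and COL4A5 (-0.12). The 15 members whose groups did not overlap numbered 24 to 31 with a replicate left out, where 1 sample stands against 2 and separation is easier. With the replicate number as a block, 8 members and 1229 genes (664 without it) had an unadjusted p under 0.05 and none passed both thresholds; the labels give no meaning to the number, there are only 2 pairs, and deviations of same-numbered samples correlated at 0.298. Leaving out a replicate, which assumes that the lone sample varies like the other group, changed the sign of 18 of 40 members. Their ranges of log2 fold change were COL13A1 -0.28 to 0.11, COL4A5 -0.040 to 0.070, COL8A1 -0.59 to 0.075, COL9A2 -0.78 to 0.16, ITGA3 -0.24 to 0.16, ITGA4 -0.19 to 0.39, ITGA5 -0.16 to 0.018, ITGA6 -0.51 to 0.020, ITGAV -0.32 to 0.11, ITGB2 -0.33 to 0.040, ITGB3 -0.46 to 0.24, ITGB4 -0.66 to 0.31, ITGB5 -0.048 to 0.21, LAMA3 -0.41 to 0.092, LAMA5 -0.13 to 0.17, LAMB2 -0.054 to 0.40, LAMB3 -0.12 to 0.38 and LAMC1 -0.12 to 0.027. Among receptor transcripts they were ITGA3-202 -0.26 to 0.15, ITGA3-209 -0.30 to 0.46, ITGA6-201 -0.10 to 0.20, ITGA6-202 -0.75 to 0.42, ITGA6-206 -1.43 to 0.24, ITGB1-201 -0.037 to 0.38, ITGB1-202 -0.88 to 1.19, ITGB1-203 -0.66 to 0.32, ITGB1-204 -0.058 to 0.56, ITGB1-210 -0.44 to 0.14, ITGB1-212 -0.079 to 0.012, ITGB1-213 -0.48 to 0.33, ITGB4-201 -0.15 to 0.63 and ITGB4-206 -0.33 to 0.86. The medians ran from -0.19 to 0.033 (integrins), -0.12 to 0.17 (laminins) and 0.031 to 0.17 (collagens), and VIRMA from -0.91 to -0.31. ITGA7 gave no value. With 2 samples per group and unknown depth, differences of the size of the replicate spread were not detectable.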

Other observations

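Outside the laminin receptors, 105 member transcripts were listed and 76 tested, of which 7 were higher and 3 lower at an unadjusted p under 0.05, beside 3.10% and 3.18% of all transcripts tested, with a lowest limma adjusted p of 0.301. Most belonged to the collagen genes already described. COL13A1, whose summed level overlapped between the groups, had transcripts on both sides: COL13A1-201 measured 1.94 and 1.89 FPKM in shCtrl and 0.372 and 0.437 FPKM in shKIAA1429 (log2 fold change -1.05, limma adjusted p = 0.340), and COL13A1-202 measured 0.895 and 1.12 FPKM in shCtrl and 2.34 and 1.95 FPKM in shKIAA1429 (log2 fold change 0.65, limma adjusted p = 0.725). COL18A1-202 measured 0.460 and 0.528 FPKM in shCtrl and 1.47 and 1.22 FPKM in shKIAA1429 (log2 fold change 0.65, limma adjusted p = 0.669). These transcripts were picked after their values were seen, and none passed the threshold.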
